A study of Mus musculus with 6 samples.

Results

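The genes described here encode enzymes that oxidise or conjugate small molecules, namely cytochrome P450s (Cyp), aldehyde dehydrogenases (Aldh), UDP-glucuronosyltransferases (Ugt), sulfotransferases (Sult) and flavin monooxygenases (Fmo). They were chosen by symbol alone, as Cyp, Ugt, Sult, Aldh or Fmo followed by a family number, with *Cyp51* left out, and 165 of the 23366 genes counted met this rule. Pseudogenes, with symbols ending in -ps, were kept, and *Cyp2d37-ps* and *Cyp4f41-ps* were among the tested genes. Their RNA was counted in sorted EpCAM-positive epithelium (EpCAM is a surface protein of epithelial cells) of the mouse small intestine at E13.5, counted in days of embryonic development. The 3 mutant libraries carried the Shh-cre-egfp allele together with *Tcf7l1* lox/lox, so that Cre, made from the *Shh* locus, excises part of *Tcf7l1* in gut epithelial cells. The other 3 libraries were labelled wild type, a label that names no Cre allele, and effects of the Cre allele and of *Tcf7l1* loss cannot be told apart. All libraries were untreated and each was made from 500 sorted cells.

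P450 enzymes insert oxygen into drugs, steroids, bile acids, retinoids and fatty acids, and flavin monooxygenases oxidise nitrogen and sulfur groups. Aldehyde dehydrogenases turn aldehydes into acids, retinaldehyde into retinoic acid among them. UGT and SULT enzymes attach a glucuronic acid or a sulfate to such products, which efflux pumps then carry out of the cell. In the adult, the small intestine and the liver are the main sites of this metabolism, and many of the genes lie in clusters of duplicated copies.

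Total counts lay between 18216537 and 20397278 per library. *Tcf7l1* had a normalized count of 438 ± 64.1 (SD, n = 3) in wild type and 49.1 ± 21.1 in mutant libraries. *Shh*, whose locus carries Cre, had 481 ± 65.8 and 198 ± 22.6. The 8 epithelial markers summed to between 9113 and 9845 CPM (read counts scaled to a common library size) in all 6 libraries, while blood, endothelial and mesenchymal markers each summed to at most 12.0. Of 12 hepatocyte markers, *Ahsg*, *Itih1* and *Tat* had 0 counts and *Alb* had at most 6 in a library. *Serpina1a*, *Serpina1b*, *Serpina1c*, *Fgb* and *Ambp* carried nearly all of the hepatocyte sum, which lay between 370 and 432 CPM in wild type libraries and between 173 and 204 CPM in the mutants, and its part in the results was not tested. *Xist* had 0 counts in every wild type library and 229 to 424 in the mutants, and *Kdm5d*, *Eif2s3y*, *Uty* and *Ddx3y* had 0 counts in every mutant, so the sex of the embryos and the genotype cannot be told apart. The labels speak of biological replicates but do not tie a library to an embryo, and p-values measure the spread between these libraries. In bulk samples such as these, fewer cells of a type and less RNA per cell cannot be told apart.

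Of the 165 genes, 100 had at least 1 count and 65 had 0 counts in all 6 libraries. A count of 0 allows at most 0.0256 CPM of reads with a single alignment over the summed depth (3 counts, counting error only). Reads that match several copies equally well were not counted, and near-identical copies were not searched for genes with 0 counts. For such genes in families of similar copies, 0 counts may therefore miss RNA. A further 39 had counts but too few to be tested, with at most 22 counts in any library. The remaining 61 were tested, and these were 29 of 100 Cyp, 16 of 20 Aldh, 8 of 20 Ugt, 6 of 18 Sult and 2 of 7 Fmo genes. Aldehyde dehydrogenases were thus detected broadly, with *Aldh3b1* the only one of 20 at 0. Among all 23366 genes, 17112 had at least 1 count and 12501 were tested, both larger shares than among the 165 enzyme genes. Several P450 genes known from the adult liver were not detected at this depth. *Cyp1a1* and *Cyp1a2*, which metabolise aromatic compounds, *Cyp2e1*, which oxidises ethanol, *Cyp3a11*, a main drug enzyme, and *Cyp7a1*, the rate-limiting enzyme of bile acid synthesis, all had 0 counts. So did the 4 *Cyp2a* genes, 7 of 8 *Cyp4a* genes, 7 of 9 *Cyp3a* genes and the 7 *Sult2a* genes, which sulfate steroids and bile acids. Of the *Cyp4a* genes at 0, *Cyp4a29-ps* and *Cyp4a30b-ps* are pseudogenes. By contrast, each of the 9 *Cyp4f* genes, a family of omega-hydroxylases of fatty acids and leukotrienes, had counts. *Cyp4f18* had only 2 counts and *Cyp4f15* 6 over the 6 libraries, about as few as *Cyp4a32* and *Cyp3a57* with 4 each. Of the 7 *Cyp4f* genes that were tested, 1 is the pseudogene *Cyp4f41-ps*.

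Levels were compared between genes as RPKM, TMM-normalized CPM per kilobase of exon, with UGT1 genes left out because they share exons. In wild type libraries 19 of the 58 tested genes outside the UGT1 locus reached a mean of 10 RPKM, 18 lay between 1 and 10 and 21 below 1. *Sult1d1*, a sulfotransferase of phenols and catecholamines, had the highest level, 134 ± 4.16 RPKM (SD, n = 3), followed by *Ugt2b34*, a glucuronosyltransferase, at 120 ± 7.36 RPKM. These levels were higher than those of 95.2% and 94.6% of the tested genes. Mean normalized counts in wild type were 6433 for *Sult1d1* and 10067 for *Ugt2b34*, so their order by RPKM rests on the exon lengths. These lengths came from another annotation than the one used for counting. The other genes in the first 5 were aldehyde dehydrogenases. *Aldh1b1*, a mitochondrial enzyme of acetaldehyde and retinaldehyde, had 76.3 ± 17.8 RPKM and *Aldh18a1*, which starts proline synthesis, had 72.8 ± 9.54 RPKM. *Aldh9a1*, an enzyme of carnitine synthesis, had 66.1 ± 0.657 RPKM. The highest P450 was *Cyp3a13* at 36.9 ± 3.0 RPKM, the single *Cyp3a* gene that could be tested. It was followed by *Cyp20a1*, a P450 without an established substrate, at 21.5 ± 3.37 RPKM and by *Cyp2c68* at 20.4 ± 1.30 RPKM, and *Cyp20a1* and *Cyp2c68* differed by less than the SD of *Cyp20a1*. Among the flavin monooxygenases *Fmo5* had 11.8 ± 0.183 RPKM and *Fmo4* had 0.462 ± 0.0663 RPKM.

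**Figure D1:**
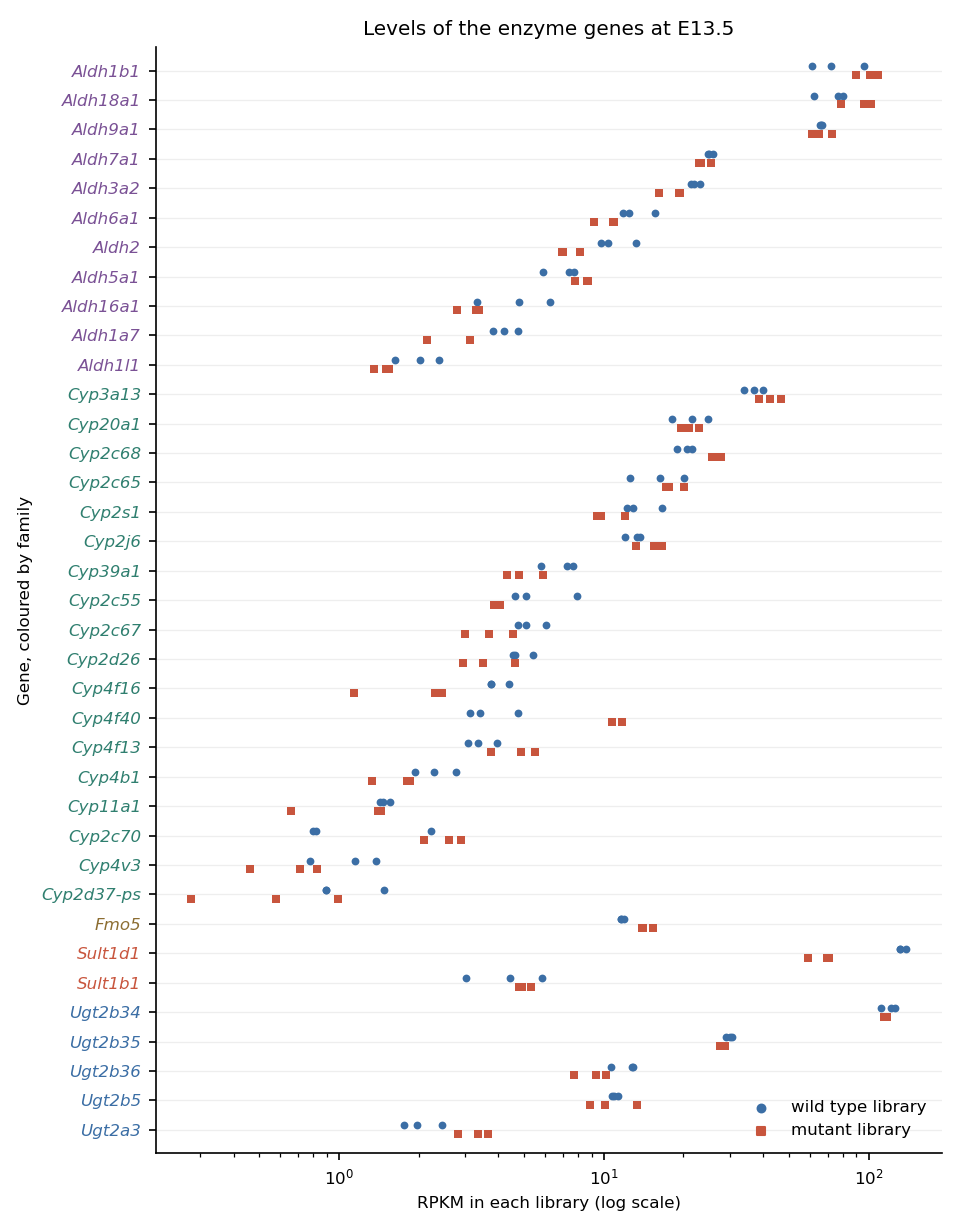
RPKM on a log axis in each of the 3 wild type (circles) and 3 mutant (squares) libraries for the 37 tested genes with a wild type mean of at least 1 RPKM, without the UGT1 locus, ordered by level within each family. *Sult1d1* and *Ugt2b34* sit highest, and for *Sult1d1* and *Cyp4f40* the groups stand clear of each other.

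Mutant and wild type libraries were then compared with a test across all genes. A gene was called when the adjusted p (edgeR quasi-likelihood test, Benjamini-Hochberg) was under 0.01, the log2 fold change was at least 0.5 in size and the mean normalized count was at least 50. Of the 61 tested enzyme genes, 3 were called higher in the mutant (*Aldh1a1*, *Cyp4f40* and *Ugt1a7c*) and 3 were called lower (*Sult1d1*, *Cyp4f16* and *Aldh2*). Each direction comprised 4.92% of the tested enzyme genes, against 2.78% called higher and 5.83% called lower among all 12501 tested genes, shares near the background. With library size as the only scaling, 2 enzyme genes were called higher and 3 lower, and 17.3% of the calls over all genes were higher in place of 32.3%. That scaling moved the median log2 fold change of all genes from -0.04 to -0.15. The median log2 fold change of the enzyme genes was -0.03, and 28 had a positive and 33 a negative value. At an adjusted p under 0.05 without the other criteria, 11.5% were higher and 14.8% lower, against 13.6% and 15.1% of all genes. Besides the called genes these were *Aldh1b1*, *Aldh18a1*, *Cyp2c68* and *Fmo5*, higher in the mutant by 0.30 to 0.40 on the log2 scale, and *Aldh3a2*, *Aldh4a1*, *Aldh6a1*, *Aldh16a1*, *Cyp2s1* and *Cyp4f41-ps*, with lower values. *Aldh16a1* had 516, 670 and 355 normalized counts in wild type and 364, 354 and 299 in mutant libraries, which overlapped, and was called lower only without wild type 3, without a filter on low counts or at an adjusted p under 0.05. All 3 mutant libraries lay above all wild type libraries for 8 enzyme genes (13.1%, against 20.8% of all genes) and below them for 18 (29.5%, against 22.2%). The fold changes spread most among P450s, from -2.39 for the pseudogene *Cyp4f41-ps* to 1.68 for *Cyp4f17* on the log2 scale, and neither of these was called.

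**Figure D2:**
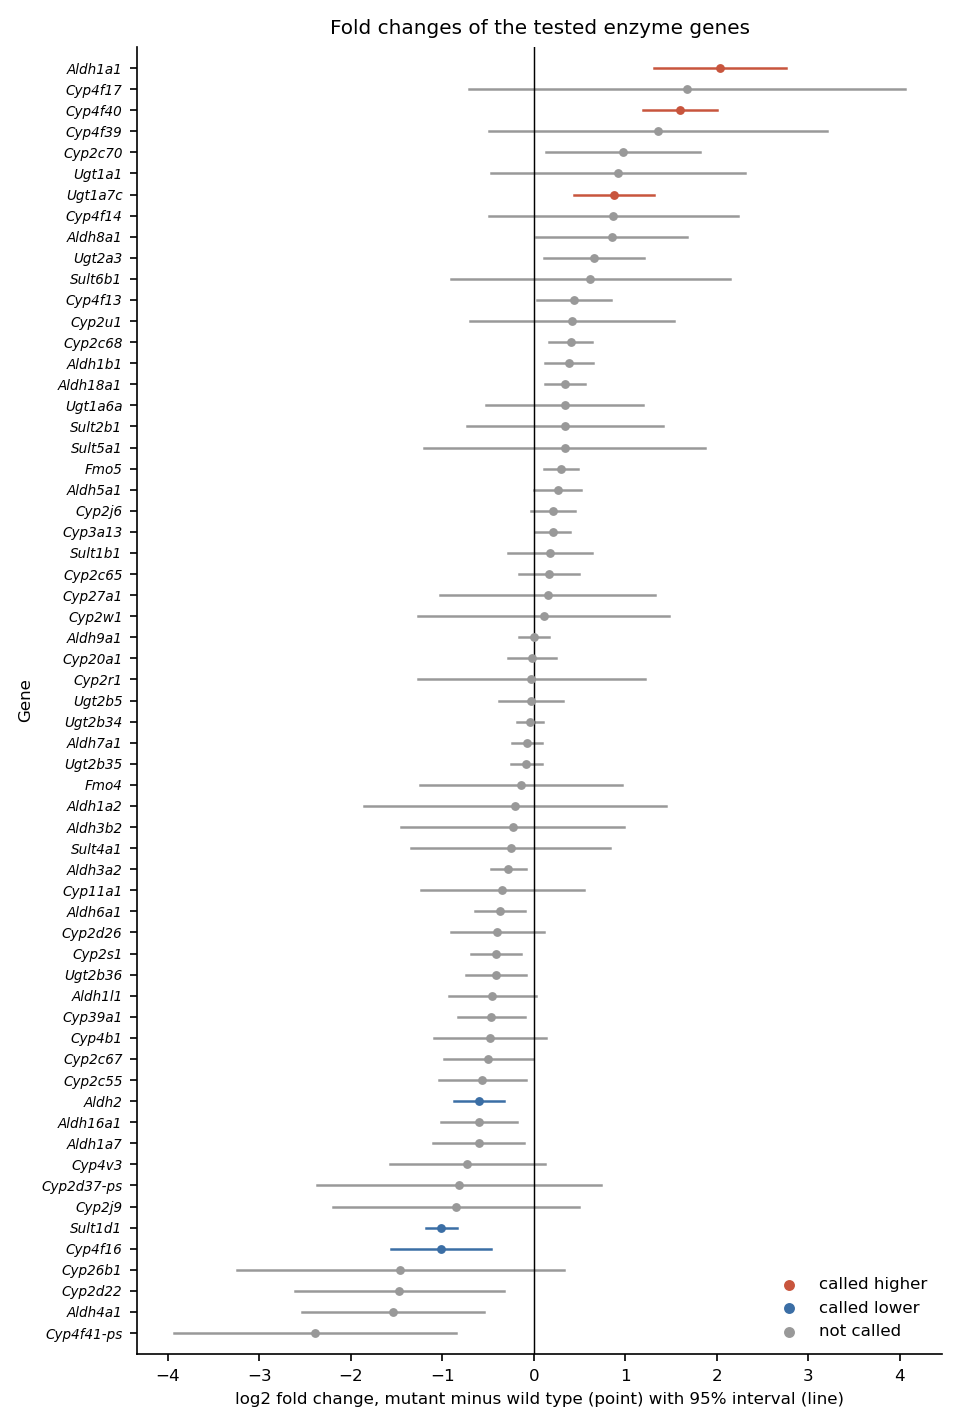
Log2 fold change of each of the 61 tested enzyme genes, mutant minus wild type (points), with 95% intervals (lines), in order of fold change. The 3 genes called higher and the 3 called lower are coloured, and wide grey intervals belong to genes with few counts.

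Within the P450s, *Cyp4f40* rose and *Cyp4f16* fell in the mutant. The normalized counts of *Cyp4f40* were 124, 172 and 113 in wild type libraries 1, 2 and 3 and 390, 424 and 427 in mutant libraries 1, 2 and 3. Every mutant library held more than double the highest wild type value. The log2 fold change was 1.60 ± 0.19 (SE), a 3.04-fold rise (adjusted p = 2.16e-05, edgeR), and the call held without any single library. *Cyp4f16* had 220, 222 and 259 normalized counts in wild type and 136, 67.1 and 144 in mutant libraries, with mutant 2 the lowest. Its log2 fold change was -1.02 ± 0.26 (adjusted p = 0.00836, edgeR), and the groups did not overlap. This call lay near the threshold. It was lost without wild type 1, 2 or 3 and without mutant 1 or 2, with adjusted p between 0.0148 and 0.0322, and the log2 fold change was -0.74 without mutant 2. It was also lost when the fit was corrected for gene length (adjusted p = 0.0138, edgeR). A near-identical gene, *Gm9705* (96.1% identity over 71.2% of the transcript), had 0 counts in wild type libraries and 2 to 4 in mutant libraries. Reads that match both equally well were not counted.

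Both genes lie on the forward strand of chromosome 17 (mm9), *Cyp4f16* at chr17:32673503-32688743 and *Cyp4f40* at chr17:32796355-32813632, 108 kb apart in a cluster of 8 *Cyp4f* genes. The stretches of 250 bases before their starts are shown because the neighbours moved in opposite directions. They come from RefSeq (GRCm38.p6), at chr17:32658636-32658885 for the first of 2 annotated starts of *Cyp4f40* and at chr17:32536307-32536556 for *Cyp4f16*. Capitals mark matches, on either strand, to the TCF/LEF motif in its forms CTTTGAT, as well as CTTTGAA, as well as CTTTGTT, to the AHR core (GCGTG) or to the antioxidant element (TGACNNNGC), searched from 250 bases before to 50 after the start. A match describes letters and not a site of binding.
Cyp4f40: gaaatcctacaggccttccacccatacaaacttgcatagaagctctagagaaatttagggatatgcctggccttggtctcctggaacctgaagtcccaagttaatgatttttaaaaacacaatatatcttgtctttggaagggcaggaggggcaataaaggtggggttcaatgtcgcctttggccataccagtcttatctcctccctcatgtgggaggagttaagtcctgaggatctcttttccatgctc
Cyp4f16: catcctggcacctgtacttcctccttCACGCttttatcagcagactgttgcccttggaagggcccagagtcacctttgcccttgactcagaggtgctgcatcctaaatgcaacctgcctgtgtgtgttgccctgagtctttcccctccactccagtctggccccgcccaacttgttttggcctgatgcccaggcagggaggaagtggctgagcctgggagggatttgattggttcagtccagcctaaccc
*Cyp4f16* held 1 match to the AHR core on the reverse strand, and the windows of *Cyp4f40* held none of these motifs. The AHR core was in 32.4% of the 32851 windows of all genes, the antioxidant element in 12.4% and any TCF/LEF form in 13.9%.

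The other 5 tested *Cyp4f* genes, all in the cluster, were not called, and *Cyp4f15*, with 6 counts over the 6 libraries, was not tested. *Cyp4f13*, with 225 ± 28.9 normalized counts in wild type and 306 ± 57.3 in mutant libraries, had a log2 fold change of 0.44 ± 0.19 (adjusted p = 0.0911, edgeR). *Cyp4f17*, whose gene lies 7.66 kb from *Cyp4f16*, had 11.3, 1.86 and 0 normalized counts in wild type and 19.7, 0 and 23.2 in mutant libraries. Its groups overlapped and its fold change of 1.68 ± 1.13 rests on very few reads. *Cyp4f41-ps* had 28.1, 11.2 and 23.8 normalized counts in wild type and 5.18, 3.19 and 3.32 in mutant libraries (log2 fold change -2.39 ± 0.73, adjusted p = 0.0228, edgeR), and it met neither the adjusted p nor the mean count required for a call. Of the 14 *Cyp2c* genes in a cluster on chromosome 19, 5 were tested, 6 had 0 counts and none was called. Among them *Cyp2c68* had 723, 638 and 697 normalized counts in wild type and 926, 863 and 935 in mutant libraries, with a log2 fold change of 0.40 ± 0.11 (adjusted p = 0.0133, edgeR). Its groups did not overlap, and it met neither the adjusted p nor the fold required. *Cyp2c70* had 30.9, 31.7 and 86.5 normalized counts in wild type and 80.8, 101 and 112 in mutant libraries. Wild type 3 lay among the mutant values (log2 fold change 0.98 ± 0.40, adjusted p = 0.0751, edgeR), and without it the gene was called higher (log2 fold change 1.65, adjusted p = 0.00351, edgeR). *Cyp2c65*, *Cyp2c67* and *Cyp2c68* have near-identical copies in the cluster, and their counts are uncertain to that extent.

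*Cyp3a13* and *Cyp20a1* did not pass the test either. The normalized counts of *Cyp3a13* were 2132, 1960 and 2306 in wild type and 2453, 2694 and 2236 in mutant libraries, and the groups overlapped (log2 fold change 0.21, 95% interval 0.01 to 0.40, adjusted p = 0.0986, edgeR). For *Cyp20a1* the interval of the log2 fold change was -0.28 to 0.24. Of 12 P450s of sterol, bile acid and steroid synthesis, 3 were tested. These were *Cyp39a1*, an oxysterol hydroxylase, *Cyp11a1*, which makes pregnenolone, and *Cyp27a1*, a sterol hydroxylase of mitochondria, and none was called. Of the vitamin D enzymes, *Cyp27b1* and *Cyp24a1* had 0 counts and *Cyp2r1*, which starts vitamin D activation, had 19.7, 35.4 and 26.6 normalized counts in wild type and 42.5, 28.8 and 8.85 in mutant libraries. The wild type values lay within the mutant range, with a log2 fold change of -0.03 ± 0.58.

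Among the aldehyde dehydrogenases, *Aldh1a1*, which makes retinoic acid from retinaldehyde, rose and *Aldh2*, a mitochondrial enzyme of acetaldehyde, fell. *Aldh1a1* had 37.5, 19.6 and 31.4 normalized counts in wild type and 140, 115 and 108 in mutant libraries. The groups stood far apart, at a low level: 0.735 ± 0.227 RPKM in wild type and 3.02 ± 0.413 RPKM in mutant libraries. The log2 fold change was 2.03 ± 0.34, a 4.10-fold rise (adjusted p = 0.00049, edgeR), the highest log2 fold change of the 61 genes, and the call held without any single library. *Aldh1a1* lies on the forward strand of chromosome 19 (mm9 chr19:20676451-20717952), 49.5 kb from its relative *Aldh1a7*, whose transcript is 89.1% identical. *Aldh1a7* had 154, 191 and 169 normalized counts in wild type and 87.0, 126 and 126 in mutant libraries, again without overlap but with the mutants below (log2 fold change -0.60 ± 0.23, adjusted p = 0.0642, edgeR). It did not pass the test. RefSeq gives 2 starts for *Aldh1a1*. They lie farther apart than the mm9 gene above is long, so they cannot both belong to that gene model. Positions were not converted between the builds, so which start belongs to it was not determined. The stretch before the first start, at chr19:20492333-20492582 (GRCm38.p6), is shown because it holds 2 matches to the TCF/LEF form CTTTGAA, in capitals. The first of these matches is on the reverse strand. The other start, for which chr19:20601718-20601967 was read, had no match to any of the motifs.
Aldh1a1: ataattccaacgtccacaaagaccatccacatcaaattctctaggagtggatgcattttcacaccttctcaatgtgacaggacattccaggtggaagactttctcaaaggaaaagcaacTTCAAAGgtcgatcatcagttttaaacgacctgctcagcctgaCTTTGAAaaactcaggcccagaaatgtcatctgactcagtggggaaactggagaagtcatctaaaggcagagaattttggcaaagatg
The form CTTTGAA alone was in 5.14% of all windows. Which start was used in these cells was not measured.

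The other genes on the list of retinoic acid synthesis and clearance were not called. *Aldh1a7*, described above, had 4.25 ± 0.465 RPKM in wild type libraries, more than *Aldh1a1* at 0.735. *Aldh8a1*, *Aldh1a2* and *Cyp26b1* were low, with 0.384, 0.381 and 0.189 RPKM in wild type libraries. *Aldh1b1*, which also acts on retinaldehyde, was not on this list and had 76.3 ± 17.8 RPKM. *Aldh8a1* had 31.9, 34.5 and 32.3 normalized counts in wild type and 62.1, 53.2 and 63.1 in mutant libraries, without overlap (log2 fold change 0.85 ± 0.39, adjusted p = 0.112, edgeR). *Aldh1a2*, the main retinoic acid enzyme of embryonic mesenchyme, had 24.4, 21.4 and 4.75 in wild type and 3.11, 28.8 and 12.2 in mutant libraries, and these groups overlapped. *Cyp26b1*, which breaks retinoic acid down, had 13.1, 15.8 and 21.9 in wild type and 0, 11.7 and 6.64 in mutant libraries. Its mutant values lay below the wild type values, with a log2 fold change of -1.46 ± 0.84 (adjusted p = 0.211, edgeR). *Aldh1a3*, *Cyp26a1* and *Cyp26c1* had too few counts to be tested.

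*Aldh2* had 955, 1218 and 896 normalized counts in wild type and 643, 637 and 748 in mutant libraries. Wild type 2 was the highest and the groups did not overlap. The log2 fold change was -0.60 ± 0.13, a 1.51-fold fall (adjusted p = 0.00339, edgeR). Leaving out wild type 2 (log2 fold change -0.45, adjusted p = 0.0270), mutant 1 (adjusted p = 0.0194) or mutant 2 (adjusted p = 0.0187) ended the call. Among the other enzymes of amino acid and mitochondrial metabolism, *Aldh1b1* had 3229, 4304 and 2743 normalized counts in wild type and 4874, 4017 and 4524 in mutant libraries, which overlapped (log2 fold change 0.38 ± 0.12, adjusted p = 0.0300, edgeR). Without wild type 2 its log2 fold change was 0.58 and the gene was called higher. *Aldh18a1* had a log2 fold change of 0.34 ± 0.10 (adjusted p = 0.0204, edgeR). *Aldh9a1* had 3626, 3653 and 3698 normalized counts in wild type and 4040, 3383 and 3582 in mutant libraries, with an interval of -0.16 to 0.17 for the log2 fold change. *Aldh7a1*, of lysine breakdown, had a log2 fold change of -0.08, and *Aldh5a1*, of GABA breakdown, one of 0.26. *Aldh4a1*, which breaks down proline, had 51.6, 52.2 and 66.5 normalized counts in wild type and 29.0, 14.9 and 14.4 in mutant libraries. Its mutant values were all lower (log2 fold change -1.54 ± 0.47, adjusted p = 0.0224, edgeR), and it met neither the adjusted p nor the mean count required for a call.

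None of the 5 tested glucuronosyltransferases of the UGT2 family, which act on steroids, bile acids and drugs, passed the test. *Ugt2b34* had 10232, 9382 and 10588 normalized counts in wild type and 9807, 9596 and 9876 in mutant libraries, the most reads of any enzyme gene. The mutant values lay within the wild type range, and the 95% interval of the log2 fold change was -0.19 to 0.10. *Ugt2b35* had 1975, 1932 and 1867 normalized counts in wild type and 1781, 1853 and 1821 in mutant libraries, a log2 fold change of -0.08 with an interval of -0.25 to 0.09. *Ugt2b36* had 519, 515 and 429 in wild type and 310, 375 and 412 in mutant libraries, with the mutants below (log2 fold change -0.42 ± 0.16, adjusted p = 0.0548, edgeR). *Ugt2a3* had values on the other side, 81.6, 72.7 and 102 in wild type and 151, 116 and 138 in mutant libraries (log2 fold change 0.66 ± 0.26, adjusted p = 0.0640, edgeR).

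The UGT1 locus on chromosome 1 makes several enzymes from alternative first exons joined to shared later exons. *Ugt1a7c*, of this locus, was called higher. It had 156, 152 and 131 normalized counts in wild type and 206, 313 and 289 in mutant libraries, with mutant 1 nearest to the wild type values. The log2 fold change was 0.88 ± 0.21, a 1.84-fold rise (adjusted p = 0.00541, edgeR). This call was lost without wild type 1, 2 or 3 and without mutant 2 or 3, with adjusted p between 0.0120 and 0.0351, and also with library size as the only scaling. *Ugt1a1*, the bilirubin enzyme, had 26.3, 21.4 and 2.85 normalized counts in wild type and 32.1, 24.5 and 39.8 in mutant libraries, which overlapped. Its log2 fold change was 0.92 and it was not called. *Ugt1a6a* is 98.6% identical to *Ugt1a7c* over 74.9% of the *Ugt1a7c* transcript. It had 46, 35 and 54 raw counts in wild type and 37, 50 and 63 in mutant libraries. These overlapped, and *Ugt1a6a* was not called (log2 fold change 0.34). *Ugt1a10* and *Ugt1a5* had 0 counts. In the mm9 annotation (chr1:89991637-90116577, forward strand) 71.6% of the exon bases of *Ugt1a7c* are shared with other genes of the same strand and 12.2% overlap a gene of the opposite strand. How reads on shared exons were counted, and whether strand was used, is not given in the sources used here, so the assignment of the change to *Ugt1a7c* is uncertain. The stretch before its RefSeq start, at chr1:88094751-88095000 (GRCm38.p6), is shown because it holds 1 match to the TCF/LEF form CTTTGAA, in capitals.
Ugt1a7c: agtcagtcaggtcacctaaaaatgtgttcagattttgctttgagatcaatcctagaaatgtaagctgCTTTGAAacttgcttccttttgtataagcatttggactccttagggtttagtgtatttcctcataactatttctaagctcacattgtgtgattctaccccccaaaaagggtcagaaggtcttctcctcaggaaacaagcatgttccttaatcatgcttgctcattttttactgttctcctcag

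*Sult1d1* was the most abundant of the called genes. It had 6316, 6320 and 6664 normalized counts in wild type libraries 1, 2 and 3 and 3406, 3334 and 2836 in mutant libraries 1, 2 and 3. The spread within either group was small beside the gap between them. The log2 fold change was -1.01 ± 0.08, a 2.02-fold fall (adjusted p = 2.41e-07, edgeR), and the call held without any single library. Its share of the summed RPKM of the enzyme genes went from 16.6% ± 0.723 in the wild type to 8.52% ± 0.818 in the mutant, while that of *Ugt2b34* was 14.8% ± 1.15 and 14.9% ± 0.462. In mutant libraries the level of *Sult1d1*, 66.5 ± 6.46 RPKM, was below those of *Ugt2b34* (116 ± 1.73), *Aldh1b1* (99.6 ± 9.60) and *Aldh18a1* (92.3 ± 12.2).

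*Sult1d1* lies on the reverse strand of chromosome 5 (mm9 chr5:87983670-87998052). Its neighbour *Sult1b1*, a sulfotransferase of thyroid hormones and phenols 16.4 kb away on the same strand, had 240, 164 and 318 normalized counts in wild type and 289, 261 and 268 in mutant libraries. These values overlapped, with a log2 fold change of 0.18 and an interval of -0.28 to 0.64. *Sult1e1*, the oestrogen sulfotransferase on the other side, had 0 counts in all 6 libraries, and *Sult2b1*, which sulfates cholesterol, had a log2 fold change of 0.34 ± 0.50. The 250 bases before the start of *Sult1d1* are shown because it had the highest RPKM of the enzyme genes in wild type and fell. They lie at chr5:87569007-87569256 on the reverse strand (GRCm38.p6) and held 1 match to the AHR core, in capitals, and none to a TCF/LEF form.
Sult1d1: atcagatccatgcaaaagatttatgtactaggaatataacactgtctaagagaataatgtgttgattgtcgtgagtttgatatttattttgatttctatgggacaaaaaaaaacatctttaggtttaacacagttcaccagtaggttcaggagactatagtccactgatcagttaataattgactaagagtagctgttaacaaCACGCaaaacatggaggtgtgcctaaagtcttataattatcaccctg

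**Figure D3:**
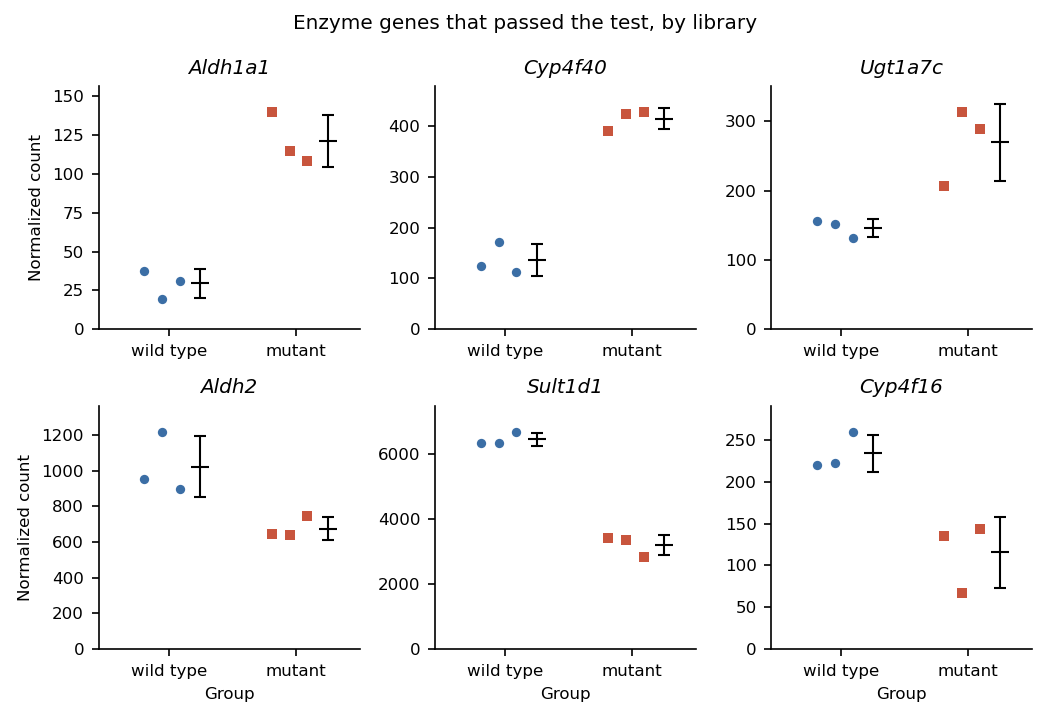
Normalized counts of the 6 called enzyme genes in each wild type (circles) and mutant (squares) library, on axes that start at 0, with the mean and SD of the 3 libraries beside them. For each gene all mutant libraries lie on one side of all wild type libraries, with the widest relative gaps for *Aldh1a1* and *Cyp4f40*.

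*Fmo5*, a flavin monooxygenase of the intestine and liver, had 1290, 1327 and 1293 normalized counts in wild type and 1702, 1549 and 1555 in mutant libraries. The groups did not overlap, and the log2 fold change was 0.30 ± 0.09 (adjusted p = 0.0207, edgeR). *Fmo5* met neither the adjusted p nor the fold required for a call. *Fmo4* had 24.4, 25.2 and 31.4 normalized counts in wild type and 33.1, 16.0 and 24.3 in mutant libraries, which overlapped. *Fmo2*, *Fmo6* and *Fmo9* had 0 counts.

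Levels varied widely within clusters of duplicated genes. In the *Ugt2* cluster of 9 genes on chromosome 5, mean wild type levels went from 120 RPKM for *Ugt2b34* and 29.7 RPKM for *Ugt2b35* to 0 for *Ugt2b38* and *Ugt2a1*. In the *Cyp2c* cluster they went from 20.4 RPKM for *Cyp2c68* to 0 for *Cyp2c29*, *Cyp2c37*, *Cyp2c38*, *Cyp2c39*, *Cyp2c50* and *Cyp2c54*, which had 0 counts in all 6 libraries, and for *Cyp2c40*, which had 0 counts in the wild type libraries. Only reads with a single alignment were counted. The transcript of *Cyp2c68* is 98.0% identical to that of *Cyp2c40*, and that of *Ugt2b5* is 95.5% identical to that of *Ugt2b38*. The levels of 0 for *Cyp2c40* and *Ugt2b38* are uncertain to that extent. No gene of the *Cyp4f* cluster had 0 counts in all libraries, with *Cyp4f15* lowest at 6 counts in all. Its 2 called genes had similar levels in wild type, 3.97 ± 0.376 RPKM for *Cyp4f16* and 3.75 ± 0.857 RPKM for *Cyp4f40*. In mutant libraries their levels were 1.96 ± 0.715 and 11.4 ± 0.559 RPKM.

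**Figure D4:**
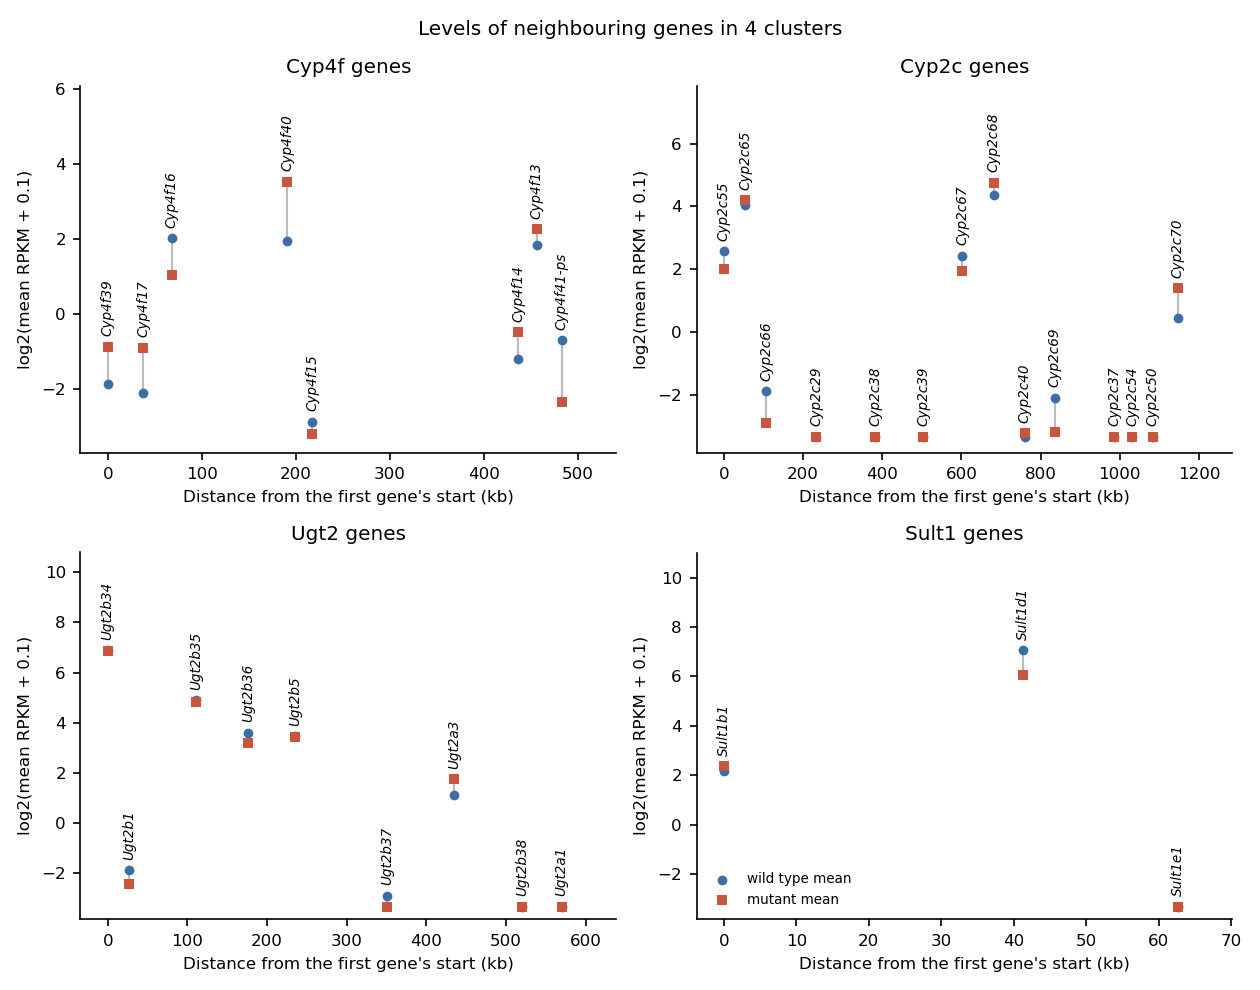
Mean level, as log2(mean RPKM + 0.1), of the genes of 4 clusters in wild type (circles) and mutant (squares) libraries, against the distance in kb from the start of the first gene of the cluster. Points at the bottom of a panel are genes with 0 or almost 0 counts, and the grey line joins the groups' means of a gene.

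The genes that work with these enzymes were described from lists of electron donors, haem metabolism, xenobiotic sensors, cofactor supply, hydrolysis of conjugates and epoxides, efflux pumps and other retinoid handling. Of 77 genes written, 74 were counted and 65 tested, and 8 were called higher (12.3%) and 4 lower (6.15%), against 2.78% and 5.83% of all genes. The lists were written with earlier results of these data known, so these shares are a description and the difference was not tested. With library size as the only scaling 8 in all were called, *Cyb5r1*, *Ephx2*, *Hmox1* and *Nr1h4* being lost, so that 4 were higher and 4 lower. A length correction also left 8, without *Abcc5*, *Ephx2*, *Hmox1* and *Rxra*. The median log2 fold change was 0.02.

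In retinoid handling, *Lrat*, which stores retinol as retinyl esters, had 18.8, 17.7 and 11.4 normalized counts in wild type and 296, 178 and 194 in mutant libraries. All mutant values were far above wild type (log2 fold change 3.79 ± 0.32, adjusted p = 6.17e-07, edgeR). *Dhrs3*, which reduces retinaldehyde to retinol, fell, with 689 ± 9.07 normalized counts in wild type libraries and 478 ± 40.0 in the mutants (log2 fold change -0.53 ± 0.12, adjusted p = 0.00568, edgeR). The other 10 tested genes of this list were not called.

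In the supply of cofactors, *Papss2*, which makes the sulfate donor of SULT enzymes, had 634, 835 and 596 normalized counts in wild type and 201, 240 and 186 in mutant libraries, without overlap. It fell 3.30-fold (log2 fold change -1.72 ± 0.17, adjusted p = 2.99e-06, edgeR). *Papss1*, which makes the same donor, had 7927 ± 440 and 7872 ± 106 normalized counts, with a log2 fold change of -0.01. *Ugdh*, which makes the glucuronic acid donor of UGT enzymes, had 5794 ± 121 and 6174 ± 156 normalized counts and was not called.

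Among haem genes, *Alad*, of haem synthesis, rose 2.23-fold from 4082 ± 212 to 9115 ± 174 normalized counts (adjusted p = 7.87e-09, edgeR), and *Hmox1*, which breaks haem down, rose 1.90-fold from 131 ± 27.7 to 248 ± 51.4 (adjusted p = 0.00663, edgeR). *Alas1*, the first enzyme of haem synthesis, was not called (log2 fold change -0.08). Of 9 tested electron donors *Cyb5r1* rose 1.49-fold. *Por*, the reductase of microsomal P450s, had a log2 fold change of -0.31 (adjusted p = 0.0397, edgeR) and met neither the adjusted p nor the fold required. Among sensors, *Tiparp*, a target of AHR, rose 1.53-fold, *Nr1h4*, the bile acid receptor, rose 1.51-fold and *Rxra*, the partner of many nuclear receptors, fell 1.81-fold. *Ahr* and *Nr1i2*, which sense aromatic compounds and drugs, were not called. Of 8 tested pumps, *Abcc2*, which exports conjugates, rose 3.24-fold from 46.0 ± 11.5 to 149 ± 49.5 normalized counts (adjusted p = 0.00114, edgeR) and *Abcc5* fell 1.52-fold. *Ephx2*, an epoxide hydrolase, rose 1.48-fold. The calls of *Lrat*, *Alad*, *Tiparp*, *Papss2* and *Ephx2* held without any single library, but *Ephx2* was under the fold required with library size alone (log2 fold change 0.46) and with the length correction (0.499). The total of 12 calls was 7 without wild type 1 or 2, 7 without mutant 1 and 6 without mutant 2. *Abcc2* was lost without mutant 2, *Abcc5* whichever library was left out, *Cyb5r1* without wild type 2, and *Hmox1*, *Nr1h4*, *Rxra* and *Dhrs3* without several of the libraries.

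**Figure D5:**
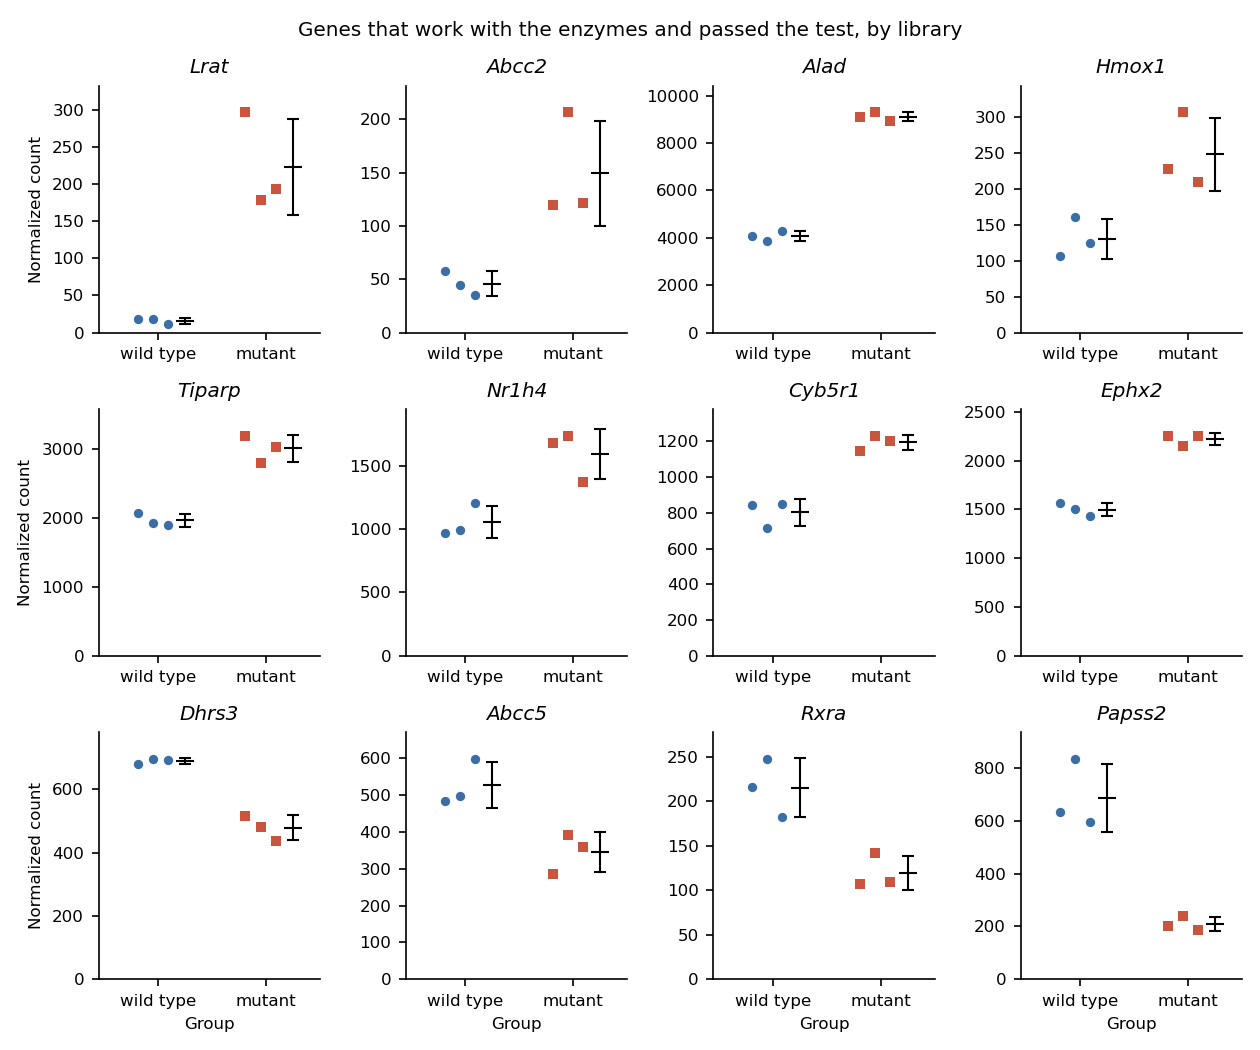
Normalized counts of the 12 called genes that work with the enzymes, in each wild type (circles) and mutant (squares) library, on axes that start at 0, with the mean and SD of the 3 libraries beside them. The 8 genes in front, from *Lrat* to *Ephx2*, were higher in the mutant and the last 4, from *Dhrs3* to *Papss2*, were lower.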

How the data were processed

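The authors aligned reads to the mouse genome mm9 with STAR 2.5.2b. Reads with a single alignment were assigned to genes of a UCSC model by featureCounts 1.5.1, and the deposited tables, 1 for each of the 6 libraries, hold these raw counts. The cDNA came from 500 sorted cells and 15 PCR cycles without molecular identifiers, so a count is a read and floors cover counting error only. Strand use, sex, litter and genetic background are not given in the sources used here.

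Counts were tested on genotype with edgeR 4.0.16 in R 4.3.3 (TMM, filterByExpr, quasi-likelihood test, Benjamini-Hochberg over 12501 genes). Group values are the mean and SD of TMM-normalized counts, 3 libraries per group, and ± after a log2 fold change is its SE. RPKM used exon lengths of an mm9 annotation other than the UCSC model used for counting, found for 98.7% of tested genes. BLAST+ 2.17.0 was used to find near-identical copies of the tested enzyme genes, taken as 95% identity or more along 50% or more of the transcript. Promoter windows are RefSeq's for GRCm38.p6, another build. Of the 6 called genes, 5 had a window and Aldh2 had none. Alternatives were DESeq2 1.42.0, RLE, library size alone, other filters and thresholds, a correction for gene length (loess, span 0.5), the fit with a replicate block and fits without 1 library. Named were the called genes, the 3 highest by RPKM of each family, the tested retinoic acid and vitamin D genes, tested neighbours of called genes and called partner genes. Others stand as examples of a list, chosen after their values were seen. The enzyme genes, lists and call rule were chosen with earlier results of these data known. On simulated counts for this comparison (12501 genes), edgeR recovered 41.1% of 56 changes of 0.5 on the log2 scale, 83.6% of 73 changes of 1 and 100% of 71 changes of 2. In the data 348 genes were called higher and 729 lower, more than were changed in the simulation. The adjusted p depends on the share of genes that change, so these percentages may not carry over to the data. Recovered meant an adjusted p under 0.01 alone, without the fold required for a call. The changed genes were drawn from those with a mean normalized count of at least 50, so these shares do not cover genes with fewer counts. Figures were drawn with matplotlib 3.10.9.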

Additional observations from a re-analysis of the deposited data

How the results depend on the processing

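Under the 16 alternatives run, the 3 enzyme genes called higher became 2 to 3 and the 3 called lower became 1 to 4. The calls of Aldh1a1, Cyp4f40 and Sult1d1 held under every other scaling, filter and left-out library. Leaving out libraries gave 1 to 3 enzyme genes called lower and 6 to 15 partner genes called, and 4 partner genes were called at a log2 fold change of at least 1. Fewer libraries leave fewer degrees of freedom. Over all genes, 348 higher and 729 lower calls became 200 and 957 with library size alone, and 260 to 516 and 405 to 867 without a library. A replicate block gave 3 and 3 enzyme genes and 9 partner genes. It ended the calls of Rxra (adjusted p = 0.0106, edgeR), Abcc5 (0.0107) and Dhrs3 (0.0114) and changed no call of the enzyme genes. The numbers share no recorded source, and same-numbered libraries had correlations of deviations from -0.0449 to 0.00971, and not every library correlated best with its own number.

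Of 474 values of the 37 named genes, 401 kept direction and call, 53 lost the call, 1 gained it and 19 changed sign. The changes of sign were in genes that did not pass the test. Aldh9a1 had a log2 fold change of -0.10 with library size alone, -0.011 with a filter at a mean of 50 counts, -0.0029 with the length correction, -3.55e-05 with the block and -0.070 to 0.059 without a library. Cyp20a1 had 0.0015 with DESeq2, 0.00031 with RLE and -0.13 to 0.11 without a library, and Ugt2b34 had 0.035 with the length correction and -0.093 to 0.0076 without a library. Without a library, Fmo4 lay between -0.42 and 0.093, Sult1b1 between -0.035 and 0.45, Aldh1a2 between -1.14 and 0.28 and Cyp2r1 between -0.53 and 0.39. The causes were not tested. Depth limits the 24 tested enzyme genes with a mean under 50 normalized counts, and 39 were not tested at all.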
